A study of Homo sapiens with 2 samples.

Results

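The miR-30 family guide strands are 5 mature microRNAs (miRNAs), hsa-miR-30a-5p, hsa-miR-30b-5p, hsa-miR-30c-5p, hsa-miR-30d-5p and hsa-miR-30e-5p (written below without hsa), taken by name from a count table of 407 miRNAs, 357 of them named and 50 numbered predictions. All 5 were in the table, and each reached 20 reads in both libraries. The cells were BT549, a human cell line established from a breast cancer, engineered to overexpress SNHG15, a long non-coding RNA, with MS2 hairpins attached, which are RNA loops that the MS2 coat protein (MCP) binds. In the pulldown group, lysate of these cells met amylose resin coated with MCP fused to maltose binding protein (MBP-MCP), and in the control group the same kind of lysate met amylose resin alone. The question was which miRNAs are held by SNHG15. Both groups carried the SNHG15-MS2 construct and differed in the protein on the resin, so RNA held by MBP-MCP itself and RNA held through SNHG15 cannot be told apart. Each group held 1 library, with 202560 miRNA reads in the pulldown and 111414 in the control, and no difference below has a replicate check. Of the miRNAs known to be epithelial, 1 of 6 listed was in the table, with 1 read in each library. Of 8 listed mesenchymal ones, 6 were in the table and made up 6.29% and 6.96% of the reads. Most of that was miR-125b-5p, with 10378 of the list's 12736 reads in the pulldown and 6539 of 7751 in the control. Of the 6, 5 reached 20 reads in a library, while miR-199a-3p had 1 read in each.

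A miRNA is cut from a hairpin, and usually the guide strand enters an Argonaute protein while the passenger strand of the other arm is degraded. Argonaute finds target RNAs mainly through the seed of the guide, its bases 2 to 8. The miR-30 guides lie on the 5′ arm of their hairpins and share a seed, so they are predicted to reach largely the same targets. In breast tissue the family is known for restraining epithelial-to-mesenchymal transition, invasion and the self-renewal of tumour-initiating cells, and several members also repress autophagy and Notch ligand genes.

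RefSeq gave the mature sequences of 3 of the 5 guides. They are shown to let a reader see how alike the members are, with the seed in capitals, 5′ to 3′.
miR-30a-5p: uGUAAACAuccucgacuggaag
miR-30e-5p: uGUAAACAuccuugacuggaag
miR-30c-5p: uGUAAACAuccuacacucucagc
These 3 carried the seed GUAAACA, and no other of the 2370 mature names in the RefSeq table did. miR-30b-5p and miR-30d-5p had no sequence there, so the search could not find them. Counted from 1 at the 5′ end, miR-30a-5p and miR-30e-5p differed by 1 substitution, C13U, and matched at 21 of 22 bases. miR-30c-5p is 23 bases long and differed from each of them at 5 of the first 22 bases, the first at position 13. The sources used here do not say how reads that fit more than 1 member were assigned, so the split between miR-30a-5p and miR-30e-5p in particular is uncertain.

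The 3 guides come from 4 hairpins, shown because the strands of both arms were measured. The capitals mark the 5p arm and then the 3p arm.
MIR30A: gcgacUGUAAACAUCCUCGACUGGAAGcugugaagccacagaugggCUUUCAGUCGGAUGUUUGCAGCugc
MIR30E: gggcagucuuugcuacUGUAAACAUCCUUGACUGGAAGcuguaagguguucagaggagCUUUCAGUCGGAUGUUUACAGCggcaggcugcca
MIR30C1: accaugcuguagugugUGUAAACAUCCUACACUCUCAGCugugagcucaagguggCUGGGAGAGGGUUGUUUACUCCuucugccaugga
MIR30C2: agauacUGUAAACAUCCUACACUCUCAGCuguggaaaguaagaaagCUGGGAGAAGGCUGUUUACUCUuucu
On GRCh38, MIR30E (chr1:40754355-40754446) and MIR30C1 (chr1:40757284-40757372) lie on the plus strand, 2837 bases apart, in introns of the protein-coding gene NFYC, a subunit of the transcription factor NF-Y. MIR30C2 (chr6:71376960-71377031) and MIR30A (chr6:71403551-71403621) lie on the minus strand, 26519 bases apart, within the lincRNA genes LINC00472 and AL136164.2 and outside their annotated exons. miR-30c-5p is made from both MIR30C1 and MIR30C2, so its reads cannot be divided between these loci.

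The 5 guides together held a small and nearly equal share of both libraries. They had 1289 reads in the pulldown, 0.636% of the library (exact Clopper-Pearson 95% interval 0.602% to 0.672%), and 726 reads in the control, 0.652% (0.605% to 0.701%). In reads per 1000000 reads of the library (RPM) the pulldown level was 0.977 times that of the control, with an exact conditional interval of 0.891 to 1.07. Intervals here cover counting error only. The ratio compares shares of a library, not amounts of RNA on the resin. It also depends on how the libraries are scaled. With the trimmed mean of M-values (TMM) of edgeR it was 1.12 (1.02 to 1.23), and under DESeq2 size factors 1.18 (1.08 to 1.30). Those factors shift every log2 ratio by 0.20 and 0.28, and totals without the 5 most abundant miRNAs shift it by 0.12. The median log2 ratio of the 161 miRNAs that reached 20 reads in either library moved with them, from −0.16 to 0.04 under TMM and to 0.12 under DESeq2 size factors.

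miR-30a-5p, which is known to target the autophagy gene BECN1 and the transition factor SNAI1, was the most abundant guide in both libraries. The pulldown held 696 reads of it and the control 348, or 3436 RPM (95% Poisson interval 3185 to 3701) and 3123 RPM (2804 to 3470), and ranked 33rd and 34th of the 407 miRNAs. The ranges of the libraries overlapped, and the ratio was 1.10 (0.966 to 1.25). Its interval included 1 with total reads but lay above 1 under TMM (ratio 1.26, 1.11 to 1.44), under DESeq2 size factors (1.33, 1.17 to 1.52) and with totals that leave out the 5 most abundant miRNAs (1.20, 1.05 to 1.37).

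miR-30c-5p, which is known to target actin-binding and cytoskeletal genes in breast cancer cells, came second, with 314 reads in the pulldown and 207 in the control, or 1550.2 RPM (1383 to 1731) and 1858 RPM (1613 to 2129). The pulldown level was the lower one, with a ratio of 0.834 whose interval, 0.698 to 0.999, ended just under 1. Its log2 ratio of −0.26 became −0.07 under TMM and turned to 0.02 under DESeq2 size factors, so its direction rests on the scaling.

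miR-30d-5p came next, with 143 reads in the pulldown and 105 in the control, or 706 RPM (595 to 832) and 942 RPM (771 to 1141). Of the 5 guides it stood lowest in the pulldown relative to the control, at a ratio of 0.749 (0.578 to 0.973) and a log2 ratio of −0.42. The log2 ratio was below 0 under each of the 5 scalings tried, between −0.42 and −0.14, but the interval of the ratio included 1 under TMM (0.662 to 1.11), under DESeq2 size factors (0.701 to 1.18) and with totals that leave out the 5 most abundant miRNAs (0.630 to 1.06).

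The last 2 guides were sparse. miR-30e-5p had 75 reads in the pulldown and 32 in the control, or 370.3 RPM (291 to 464) and 287 RPM (196 to 405). Its ratio of 1.29 was the highest of the 5, with an interval of 0.842 to 2.02, and with DESeq2 size factors it was 1.56 (1.02 to 2.44). miR-30b-5p had 61 and 34 reads, or 301 RPM (230 to 387) and 305 RPM (211 to 426), with a ratio of 0.987 (0.638 to 1.55). For both, the ranges of the libraries overlapped, and no difference was detectable with total reads at this depth.

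**Figure D1:**
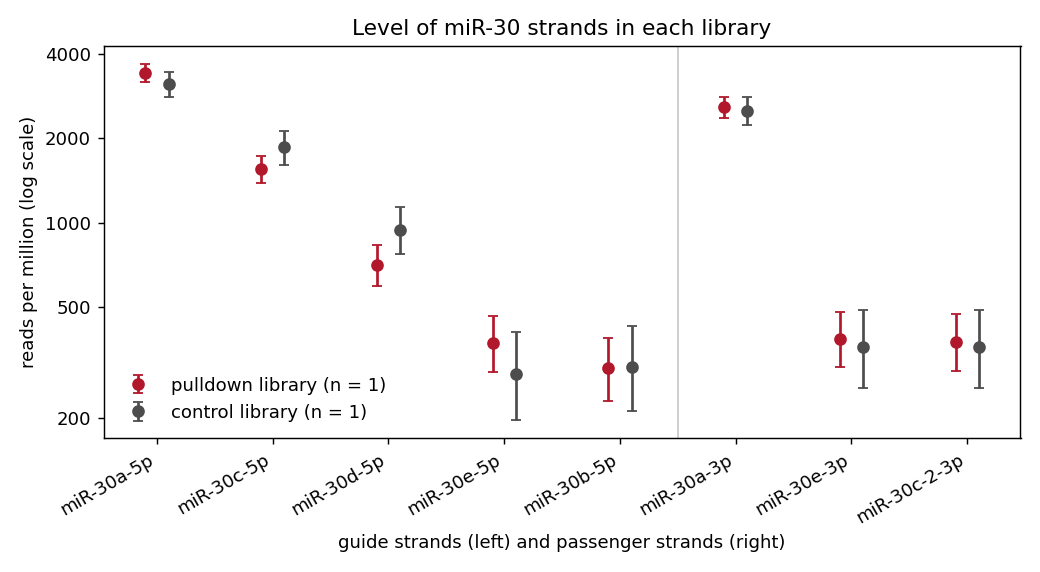
Level of the 5 miR-30 guide strands and of the 3 passenger strands with at least 20 reads, in RPM on a log scale, in the pulldown library (red) and the control library (grey); bars are exact 95% Poisson intervals of the reads and n = 1 library each. miR-30a-5p stood at 3436 and 3123 RPM, while miR-30e-5p and miR-30b-5p lay near 300 RPM with overlapping bars.

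The order of the guides was the same in both libraries down to miR-30d-5p. No length term was applied, and the 3 guides with a RefSeq sequence are 22 or 23 bases long. Whether the libraries captured different strands equally well was not tested, so this is an order of reads. In the pulldown, miR-30a-5p had 2.22 times the reads of miR-30c-5p (1.94 to 2.54), which had 2.20 times those of miR-30d-5p (1.80 to 2.70), which had 1.91 times those of miR-30e-5p (1.43 to 2.56). In the control, the first 2 steps were 1.68-fold (1.41 to 2.01) and 1.97-fold (1.55 to 2.52), and miR-30d-5p had 3.09 times the reads of miR-30b-5p (2.08 to 4.69). miR-30e-5p and miR-30b-5p changed places between the libraries, and their reads differed by less than counting error in each, at 1.23-fold (0.865 to 1.75) in the pulldown and 1.06-fold (0.636 to 1.78) in the control.

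None of the 5 guides was at least 2-fold apart between the libraries, the rule of size used here because 1 library a group allows no test. Of the same 161 miRNAs, 9 were, or 5.59%. The intervals of 2 guides, miR-30c-5p and miR-30d-5p, lay below 1 and that of 0 guides above it, against 23.6% of the 161 below 1 and 11.2% above. Under DESeq2 size factors the split was 2 above, miR-30a-5p and miR-30e-5p, and 0 below, while the 161 split into 44 above and 12 below. The median log2 ratio of the 5 guides was −0.02, with an SD of 0.31 among them, beside −0.16 over all 161 and −0.06 over the 133 named ones. Another 55 named miRNAs had a mean RPM between that of the lowest and the highest guide, and their log2 ratios ran from −1.14 to 0.54 with a median of −0.15. The 5 guides, from −0.42 to 0.36, lay inside that range. The authors' deposited table calls 26 miRNAs different (6.39% of 407), 0 of the 5 guides among them, and gives the guides adjusted p-values from 0.721 to 1.

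**Figure D2:**
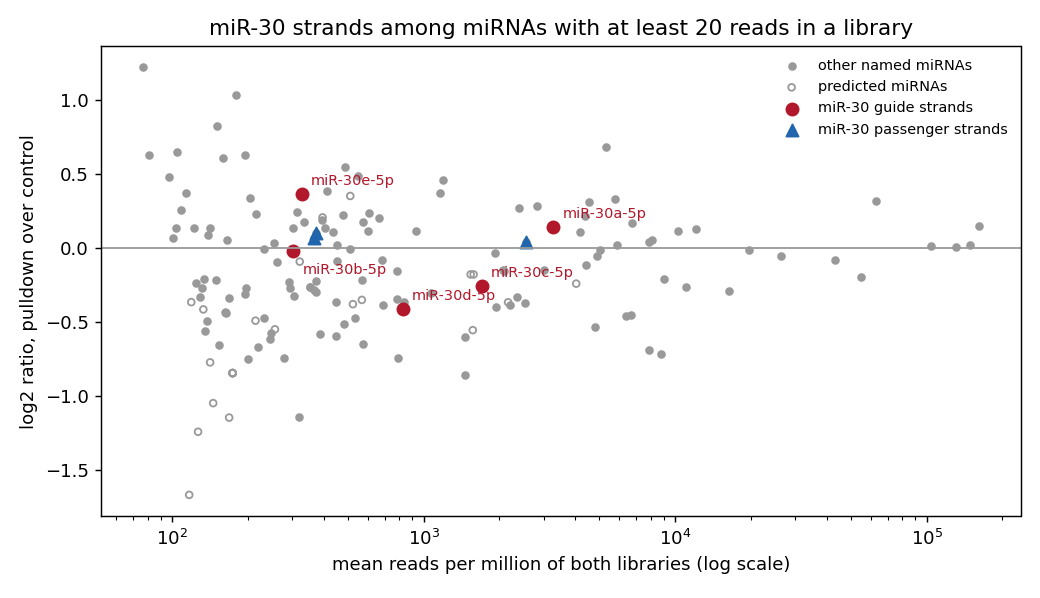
Log2 ratio of pulldown over control RPM against the mean RPM of both libraries (log scale) for the 159 miRNAs that reached 20 reads in either library and had reads in both; 2 others had 0 reads in one library and are not drawn. The miR-30 guide strands (red) lie between −0.42 and 0.36, and the passenger strands (blue triangles) between 0.04 and 0.10.

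**Figure D3:**
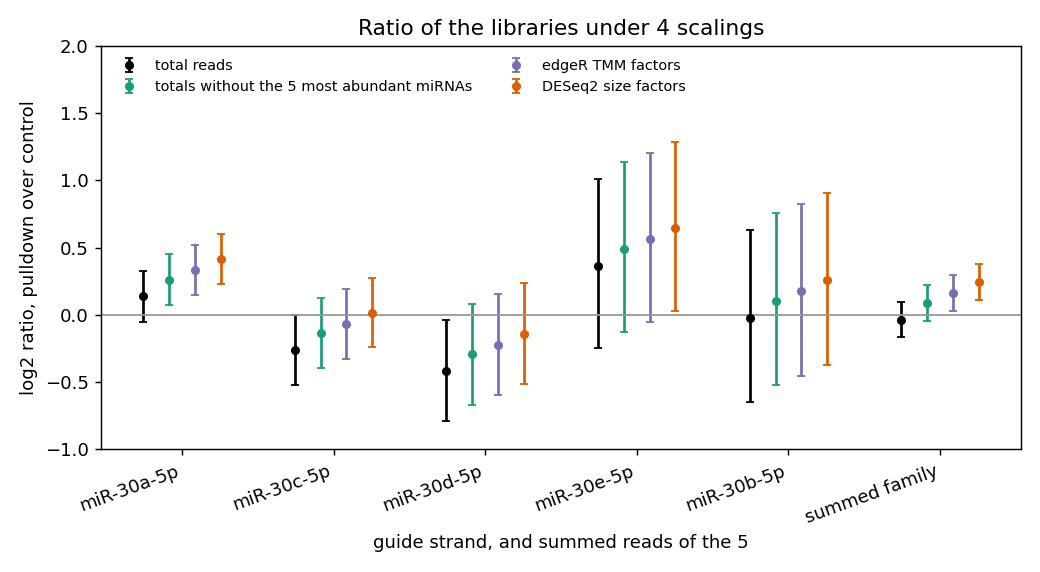
Log2 ratio of pulldown over control for each guide strand and for the summed reads of the 5 under 4 ways of scaling the libraries, with 95% intervals from the read numbers (n = 1 library each). The points of one strand move together by up to 0.28, which carries the bar of miR-30a-5p above 0 and those of miR-30c-5p and miR-30d-5p across it.

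Ratios between members within a library do not depend on scaling. miR-30a-5p made up 54.0% of the reads of the 5 guides in the pulldown (51.2% to 56.7%) and 47.9% in the control (44.2% to 51.6%). miR-30c-5p made up 24.4% (22.0% to 26.8%) and 28.5% (25.3% to 31.9%), and miR-30d-5p 11.1% (9.43% to 12.9%) and 14.5% (12.0% to 17.2%). The shares of miR-30b-5p, 4.73% and 4.68%, and of miR-30e-5p, 5.82% and 4.41%, had intervals that overlapped widely. The intervals of miR-30a-5p in the 2 libraries met only between 51.2% and 51.6%, and the other members' intervals overlapped more.

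The 10 pairs of guides were compared by the odds ratio of their reads between the libraries, with exact conditional intervals. At the 95% level 3 of the 10 excluded 1. The ratio of miR-30a-5p to miR-30c-5p was 2.22 in the pulldown and 1.68 in the control, an odds ratio of 1.32 (1.05 to 1.65). That of miR-30a-5p to miR-30d-5p was 4.87 and 3.31, an odds ratio of 1.47 (1.09 to 1.97), and that of miR-30d-5p to miR-30e-5p was 1.91 and 3.28, an odds ratio of 0.582 (0.345 to 0.966). With intervals widened to 99.5% for the 10 pairs, 0 of them excluded 1. The near-identical pair, miR-30a-5p and miR-30e-5p, had an odds ratio of 0.853 (0.535 to 1.34). Summed, so that reads shared by these 2 guides stay together, their 771 pulldown and 380 control reads gave a ratio of 1.12 (0.986 to 1.27).

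The passenger strands showed which hairpins left both arms in the libraries. Of 6 listed, 5 were in the table and 3 had at least 20 reads in a library; miR-30c-1-3p was not analysed here. miR-30a-3p had 524 reads in the pulldown and 280 in the control, or 2587 and 2513 RPM, so this strand had more reads than 4 of the 5 guides. Its ratio was 1.03 (0.889 to 1.19). miR-30e-3p had 78 and 40 reads (ratio 1.07, 0.724 to 1.61) and miR-30c-2-3p had 76 and 40 (ratio 1.05, 0.704 to 1.57). miR-30d-3p had 3 and 0 reads and miR-30b-3p 1 read in each library, too few to compare; a control value of 0 allows up to 3 reads, or 26.9 RPM. With total reads, the intervals of the 3 passenger strands with 20 reads all included 1. They were computed with total reads only. TMM raises every log2 ratio by 0.20 and DESeq2 size factors by 0.28. Either shift would carry the interval of miR-30a-3p above 1. Those of miR-30e-3p and miR-30c-2-3p would still include 1.

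The mature passenger strands are shown with the seed in capitals, because it differs from that of the guides.
miR-30a-3p: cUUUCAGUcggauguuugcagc
miR-30e-3p: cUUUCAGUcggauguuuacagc
miR-30c-2-3p: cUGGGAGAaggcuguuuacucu
As with their guides, miR-30a-3p and miR-30e-3p differed by 1 substitution, G18A, so their reads are uncertain in the same way.

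The name guide strand fitted the 5p arm of miR-30b and miR-30d better than that of miR-30a and miR-30e. The 5p arm gave 98.4% of the miR-30b reads of both arms in the pulldown (exact 95% interval 91.3% to 100.0%) and 97.1% in the control (85.1% to 99.9%). For miR-30d it gave 97.9% (94.1% to 99.6%) and 100% (96.5% to 100%). For miR-30c, over 314 guide and 76 passenger reads in the pulldown and 207 and 40 in the control, it gave 80.5% (76.2% to 84.3%) and 83.8% (78.6% to 88.2%). These passenger reads are miR-30c-2-3p alone, while miR-30c-5p also comes from MIR30C1, whose passenger strand is left out, so the shares of miR-30c are upper values and its arm use is not directly comparable with that of the other members. For miR-30a the arms were close to balance, with 57.0% from the 5p arm in the pulldown (54.2% to 59.8%) and 55.4% in the control (51.4% to 59.3%). For miR-30e the 5p arm gave 49.0% (40.9% to 57.2%) and 44.4% (32.7% to 56.6%), so which arm was the more abundant could not be told.

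Arm use differed between the libraries by less than counting error in the 3 members with 20 or more passenger reads. The odds ratio of guide to passenger reads between the libraries was 1.07 for miR-30a (0.876 to 1.30), 0.799 for miR-30c (0.510 to 1.24) and 1.20 for miR-30e (0.660 to 2.20). Both arms were then counted together, scaled by total reads and again without miR-30c-1-3p. The level in the pulldown was 1.07 times that of the control for miR-30a (0.970 to 1.18) and 1.17 times for miR-30e (0.878 to 1.57). It was 0.868 times for miR-30c (0.739 to 1.02) and 0.765 times for miR-30d (0.591 to 0.992). Guides and passengers of the family together had a ratio of 0.997 (0.926 to 1.07). These ratios rest on the scaling too. The TMM shift of 0.20 in log2 ratio would carry the intervals of miR-30a, miR-30e and the whole family above 1. Those of miR-30c and miR-30d would then include 1.

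**Figure D4:**
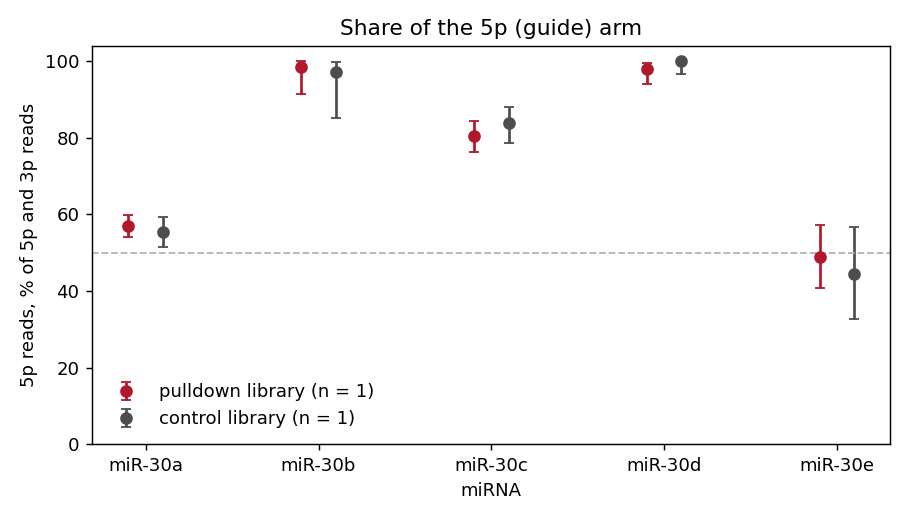
Reads of the 5p arm as a percentage of 5p and 3p reads for each miR-30 member in the pulldown library (red) and the control library (grey), with exact 95% binomial intervals (n = 1 library each); the dashed line marks 50%. miR-30b and miR-30d lie above 97%, miR-30c (with the 3p reads of 1 of its 2 hairpins) above 80%, and miR-30a and miR-30e near the line.

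Each guide was set beside the named miRNAs next above and next below it in mean RPM. miR-26a-5p (877 and 448 reads, log2 ratio 0.11) and miR-101-3p (578 and 353, −0.15) flanked miR-30a-5p. let-7d-5p (384 and 216 reads, −0.03) and miR-218-5p (235 and 196, −0.60) flanked miR-30c-5p. miR-186-5p (148 and 105 reads, −0.37) and miR-152-3p (119 and 110, −0.75) flanked miR-30d-5p, which lay close to the first of these. miR-224-5p (72 and 35 reads, 0.18) and miR-9-3p (40 and 49, −1.14) flanked miR-30e-5p, and miR-769-5p (55 and 38, −0.33) and miR-15b-3p (64 and 32, 0.14) flanked miR-30b-5p. The log2 ratio lay between those of the neighbours for 3 guides, and above both for 2, miR-30a-5p and miR-30e-5p.

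Among 49 other named miRNAs with at least 100 reads in both libraries, let-7d-5p (log2 ratio −0.03), miR-23a-3p (−0.01) and miR-93-5p (−0.01) were nearest to the summed miR-30 guides (−0.03) in their log2 ratio over the 2 libraries. Other families with a shared seed had summed ratios of 1.04 for let-7 (1.03 to 1.05, 9 members) and 0.789 for miR-29 (0.749 to 0.831, 3 members). The summed ratio of miR-15/16 was 1.10 (1.08 to 1.12, 6 members), nearly all of it from miR-16-5p. That miRNA gave 34274 of the family's 34870 reads in the pulldown and 17015 of 17439 in the control. The median log2 ratio of the 4 miR-15/16 members with 20 reads was −0.37, with a range of −0.61 to 0.15. The interval of the miR-30 guides, 0.891 to 1.07, overlapped that of let-7 and lay above that of miR-29, and its upper end fell just short of the interval of miR-15/16. The members' log2 ratios spanned 0.78 in miR-30, 0.66 in let-7, 0.76 in miR-15/16 and 0.57 in miR-29, over members with 20 reads in a library. A span grows with the number of members and with counting error, and both differ between these families. The top of the miR-30 span is the sparse miR-30e-5p, so these spans do not rank the families by spread.

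SNHG15 lies on chromosome 7 (chr7:44983023-44986961, GRCh38, minus strand) and has 10 transcripts in GENCODE 29, from 505 to 3116 bases long. The sources used here do not say which of them the construct holds. The letters TGTTTAC, which pair with bases 2 to 8 of the guides, were searched on the sense strand and found in 0 of the 10. The shorter GTTTAC, which is contained in the first motif and pairs with bases 2 to 7, was also found in 0. Among lincRNA transcripts within 10% of the same length, 2.27% to 20.9% held the longer motif and 6.55% to 36.0% the shorter one, depending on the length. The seed matches of the passenger strands, ACTGAAA for miR-30a-3p and miR-30e-3p and TCTCCCA for the miR-30c 3p strands, were likewise found in 0 of the 10, against 7.65% to 29.1% and 6.55% to 35.5% of like transcripts. This says only that these letters are not in the annotated transcripts.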

How the data were processed

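Small RNA on MBP-MCP amylose resin or bare amylose resin was extracted with mirVana and sequenced from QIAseq miRNA libraries, per the labels' protocols. The authors deposited raw read counts per miRNA, and values headed Tpm that are reads per 1000000 (RPM) with no length term, within 0.0484% of those computed here. The genome was GRCh38, per the submitters' processing notes; the sources used here do not give the aligner, the annotation release or whether molecular identifiers were counted. The log2 fold changes, p-values and adjusted p-values of the authors' deposited table come without a stated dispersion. There were 0 columns of other samples.

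RPM was computed over the summed rows of the table, predictions included. For log2 ratios 0.5 reads, scaled to each library's size, were added as a prior count. Ratio intervals are exact conditional binomial ones, share intervals exact Clopper-Pearson ones, all at 95%. With 1 library per group no test between groups was run; p-values were copied from the deposited table only. Reads without known molecular identifiers need not be independent molecules. Alternatives were TMM factors (edgeR 4.0.16), DESeq2 1.42.0 size factors, totals leaving out the 5 most abundant miRNAs or the predictions, a prior count of 5, and other thresholds. Named miRNAs were the guides, their passenger strands, the neighbours of each guide in mean RPM, and the 3 with at least 100 reads in both libraries nearest in log2 ratio to the summed guides; miR-378a, miR-361 and miR-423 were named for their arm shares, after those were seen. Sequences are from RefSeq (GRCh38.p14), which matched 321 of the 357 named miRNAs, and annotation from GENCODE 29. The members and lists were chosen with earlier results of these data known. In 50 simulated runs of this comparison (407 miRNAs, 200 of them changed), 95.8% of the intervals held the ratio that was set. The intervals allow for counting error alone. That figure therefore does not bear on spread between replicate libraries, duplicated reads, reads that fit more than 1 miRNA, or scaling.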

Additional observations from a re-analysis of the deposited data

How the results depend on the processing

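The log2 ratio of the summed guides, −0.03, moved outside its counting interval to 0.16 under TMM, to 0.24 under DESeq2 size factors, and to −0.21 (ratio 0.863, 0.757 to 0.984) without miR-30a-5p, the most abundant member. The number of guides whose interval excluded 1, 2 with total reads, became 1 with TMM factors and 1 with totals without the 5 most abundant miRNAs, in both cases miR-30a-5p above 1. Of all 161 miRNAs, 36 lay above 1 and 15 below it under TMM. With totals without the 5 most abundant miRNAs, 28 lay above and 21 below. The log2 ratio of miR-30c-5p turned to 0.016 with DESeq2 size factors. Under DESeq2 size factors the number of guides whose interval excluded 1 was again 2, but of other guides and on the other side. These were miR-30a-5p and miR-30e-5p above 1, in place of miR-30c-5p and miR-30d-5p below it. The median of the guides, −0.02 with total reads, changed sign to 0.17 under TMM, 0.26 under DESeq2 size factors and 0.10 with totals that leave out the 5 most abundant miRNAs, and was −0.26 over the 3 members with at least 100 reads in both libraries. The median has no interval of its own; these values lay inside that of miR-30b-5p, the sparse member at the median. With total reads, 0 guides passed the rule of size at 1.5-fold, with a minimum of 50 reads or with no minimum, and 20.5% of the 161 miRNAs passed at 1.5-fold. Under DESeq2 size factors the ratio of miR-30e-5p, 1.56, was past 1.5-fold. The share of all miRNAs past 1.5-fold under that scaling was not computed. Over both arms, miR-30a-5p made up 35.3% and 32.0% of the family's reads. The intervals widened for 10 pairs and the arms of all miRNAs were added after seeing the data. No library could be left out, since each group held 1, and counting error limits miR-30b-5p and miR-30e-5p most. No paired analysis was possible because each group held 1 library and the labels carry no replicate numbers.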

Other observations

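The balance of arms in miR-30a and miR-30e was set beside all other miRNAs, a comparison chosen after its values were seen. Of the named miRNAs, 44 had both arms in the table under 1 name and at least 100 reads in all. The arm with fewer reads made up a median of 1.97% of the reads of a miRNA in the pulldown and 2.48% in the control. In miR-30e it made up 49.0% and 44.4%, and in miR-30a 43.0% and 44.6%, the 2 highest mean shares of the 44. miR-378a followed with 24.0% and 41.2%, then miR-361 with 30.2% and 31.9% and miR-423 with 29.7% and 31.8%. The lesser arm exceeded 40% in 2 miRNAs in the pulldown, miR-30a and miR-30e, and in 3 in the control, with miR-378a the third. miR-30a and miR-30e are nearly identical in both arms, so they are not independent examples.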
